A study of Mus musculus with 11 samples.

Results

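The complement system is an innate immune cascade, and 8 of its genes were followed here through the cells of the mouse brain after a sham operation or a stroke, with and without the gene *Lrg1*. They were chosen by name from the 32285 genes of the count matrices, with earlier results of these data known. The set holds the genes of the early components *C1qa*, *C1qb*, *C1qc*, *C4b* and *C3*, the receptor genes *C3ar1* and *C5ar1*, and *Serping1*, which encodes the C1 inhibitor. Each name matched 1 row of the matrices.

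C1q recognises immune complexes, dying cells and synapses, and the proteases bound to it cleave C4, after which C3 is cleaved in turn. The small fragments C3a and C5a act on the receptors encoded by *C3ar1* and *C5ar1* and attract or activate myeloid cells, while the C1 inhibitor blocks the first proteases of the classical and lectin pathways. In the brain, microglial cells are the best known source of C1q, reactive glia are known to express C4 and C3, and complement takes part in the clearance of debris and of synapses after injury.

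The data are single-cell RNA sequencing counts from the right brain of 11 mice, made with the 10x Genomics Chromium 3′ kit, in which each unique molecular identifier (UMI) stands for 1 captured mRNA molecule. Wild-type (WT) C57BL/6 mice, male and 8 to 10 weeks old by the study's methods, formed the sham + WT group (3 mice) and the MCAO/R + WT group (2 mice). Mice with a conventional deletion of *Lrg1* in all tissues (Lrg1-/-, C57BL/6N background, given as 3 months old) formed the sham + Lrg1-/- group (3 mice) and the MCAO/R + Lrg1-/- group (3 mice). MCAO/R is occlusion of the middle cerebral artery with a filament followed by reperfusion, and in the sham operation the filament did not enter the artery. WT mice were bought from a supplier, whereas Lrg1-/- mice were made by a company and then backcrossed and raised at the study's university, so genotype and colony cannot be told apart.

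*Lrg1* itself had 190 to 654 UMIs in the sham + WT libraries, 15587 to 17160 in the MCAO/R + WT libraries and 0 in 5 of the 6 Lrg1-/- libraries, with 1 UMI in MCAO/R + Lrg1-/- replicate 5. A library held 3054 to 32130 cells and 37159497 to 171813031 UMIs in all. Haemoglobin transcripts made up 0.00703% to 0.0195% of the UMIs of WT libraries and 3.46% to 9.08% in Lrg1-/- libraries. MCAO/R + Lrg1-/- replicates 1 and 2 expressed *Xist* at 363 and 469 CPM (UMIs of a gene per 1e+06 UMIs) and *Ddx3y* at 0.388 and 0.474, whereas the other 9 libraries had *Xist* at 1.17 CPM or less, so these 2 libraries did not match male mice. Any 2 libraries shared at most 1.24% of the cell barcodes of the smaller one, with like counts in none. Of 125113 cells, 95331 fell into 17 cell types named by their markers. Cells in unnamed clusters were left out of every comparison, and made up 2.69% to 12.02% of a library in sham + WT, 21.4% to 42.4% in sham + Lrg1-/-, 2.48% and 6.04% in MCAO/R + WT and 13.9% to 54.6% in MCAO/R + Lrg1-/-. A mouse entered a cell type with 20 cells or more, and levels are CPM of the summed UMIs of that mouse and cell type, scaled by the trimmed mean of M-values.

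All 8 genes are protein coding and lie on the minus strand (GRCm38, GENCODE M21). *C1qa* (ENSMUSG00000036887, chr4:136895917-136898803), *C1qb* (ENSMUSG00000036905, chr4:136880129-136886187) and *C1qc* (ENSMUSG00000036896, chr4:136889804-136893065) stand side by side within 18675 bases. *C4b* (ENSMUSG00000073418, chr17:34728380-34743882) has a near-identical neighbour, *C4a*, 65209 bases away: of the 90-base windows in the last 500 bases of *C4b*, 83 of 411 (20.2%) also occur in *C4a*, and *C4a* held 0.563% to 4.09% of the UMIs of the pair in the 4 groups. *C3* (ENSMUSG00000024164) lies at chr17:57203970-57228136, *C3ar1* (ENSMUSG00000040552) at chr6:122847138-122856161, *C5ar1* (ENSMUSG00000049130) at chr7:16246743-16259540 and *Serping1* (ENSMUSG00000023224) at chr2:84765387-84775444.

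Promoter sequence from RefSeq (GRCm38.p6) was used for 5 of the 8 genes. It is shown for *C1qb* and *C1qc*, which moved together, and for both receptor genes, which also moved together in microglial cells. The stretches below lie before the RefSeq start and outside any annotated exon, and capitals mark a motif searched on both strands: GAGGAA (PU.1) in *C1qb* and, as its reverse complement, in *C1qc*, TGANTCA (AP-1) in *C3ar1*, and the reverse complement of GAAANNGAA (interferon regulatory factors) in *C5ar1*. They are chr4:136886201-136886450 (*C1qb*), chr4:136893066-136893164 (*C1qc*), chr6:122856162-122856407 (*C3ar1*) and chr7:16259339-16259512 (*C5ar1*), all on the minus strand and written 5′ to 3′, and the *C5ar1* stretch lies inside the GENCODE gene, in an intron.
C1qb: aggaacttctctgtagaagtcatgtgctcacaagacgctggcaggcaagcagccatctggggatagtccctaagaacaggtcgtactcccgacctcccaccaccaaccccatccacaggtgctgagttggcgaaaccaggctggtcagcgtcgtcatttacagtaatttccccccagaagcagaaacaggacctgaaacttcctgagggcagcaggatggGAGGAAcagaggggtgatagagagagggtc
C1qc: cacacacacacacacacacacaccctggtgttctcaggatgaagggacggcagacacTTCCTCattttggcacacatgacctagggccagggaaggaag
C3ar1: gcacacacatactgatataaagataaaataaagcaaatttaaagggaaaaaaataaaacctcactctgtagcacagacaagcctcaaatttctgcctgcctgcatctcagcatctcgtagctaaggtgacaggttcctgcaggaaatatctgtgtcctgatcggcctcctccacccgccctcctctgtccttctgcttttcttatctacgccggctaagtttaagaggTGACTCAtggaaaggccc
C5ar1: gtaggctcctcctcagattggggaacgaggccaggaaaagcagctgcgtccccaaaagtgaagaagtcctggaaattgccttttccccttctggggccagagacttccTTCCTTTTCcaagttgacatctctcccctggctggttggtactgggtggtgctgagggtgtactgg

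These motifs are common. GAGGAA occurs in 28.3% of 32851 mouse promoter windows of 300 bases, TGANTCA in 7.81% and GAAANNGAA in 8.56%, and the motifs did not overlap one another here. The *C3* window held TTGCNNAA (C/EBP), which 10.8% of the windows hold, and TTCNNNGAA (STAT, 8.30%) was in none of the 5 windows. A match is a description of the letters only.

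In sham + WT mice the complement genes divided by cell type. C1q and both receptor genes were highest in microglial cells and border-associated macrophages among types with 2 or more libraries (*C5ar1* was at 549 CPM in the neutrophils of 1 library), *Serping1* in fibroblasts and mural cells, and *C4b* in border-associated macrophages. *C1qa* was at 4799 ± 252 CPM (SD, n = 3) in microglial cells and 4156 ± 146 in border-associated macrophages, the macrophages of the meninges and perivascular spaces, and the ranges of these neighbours did not meet. Monocytes followed at 836 ± 93.8. *C3ar1* was higher in border-associated macrophages (514 ± 29.4) than in microglial cells (300 ± 8.14), as was *C5ar1* (603 ± 92.9 against 278 ± 16.0). *Serping1* was at 501 ± 89.6 CPM in fibroblasts. Vascular smooth muscle cells followed at 163 ± 15.7 and pericytes at 80.6 ± 12.5, with no overlap of ranges between neighbours. *C4b* was at 67.2 ± 16.2 in border-associated macrophages, 24.4 ± 8.33 in astrocytes and 18.0 ± 10.5 in fibroblasts, and the ranges of the last pair met. Ciliated ependymal cells (6.01 ± 2.22) and oligodendrocytes (5.93 ± 0.797) followed, also with ranges that met. *C3* was sparse, with 179 UMIs in all cells of the 3 sham + WT libraries, and was at 24.3 ± 9.30 in monocytes and 14.2 ± 10.2 in ciliated ependymal cells, whose ranges overlapped, and at 77.2 in the neutrophils of the 1 library that held 20 of them.

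**Figure D1:**
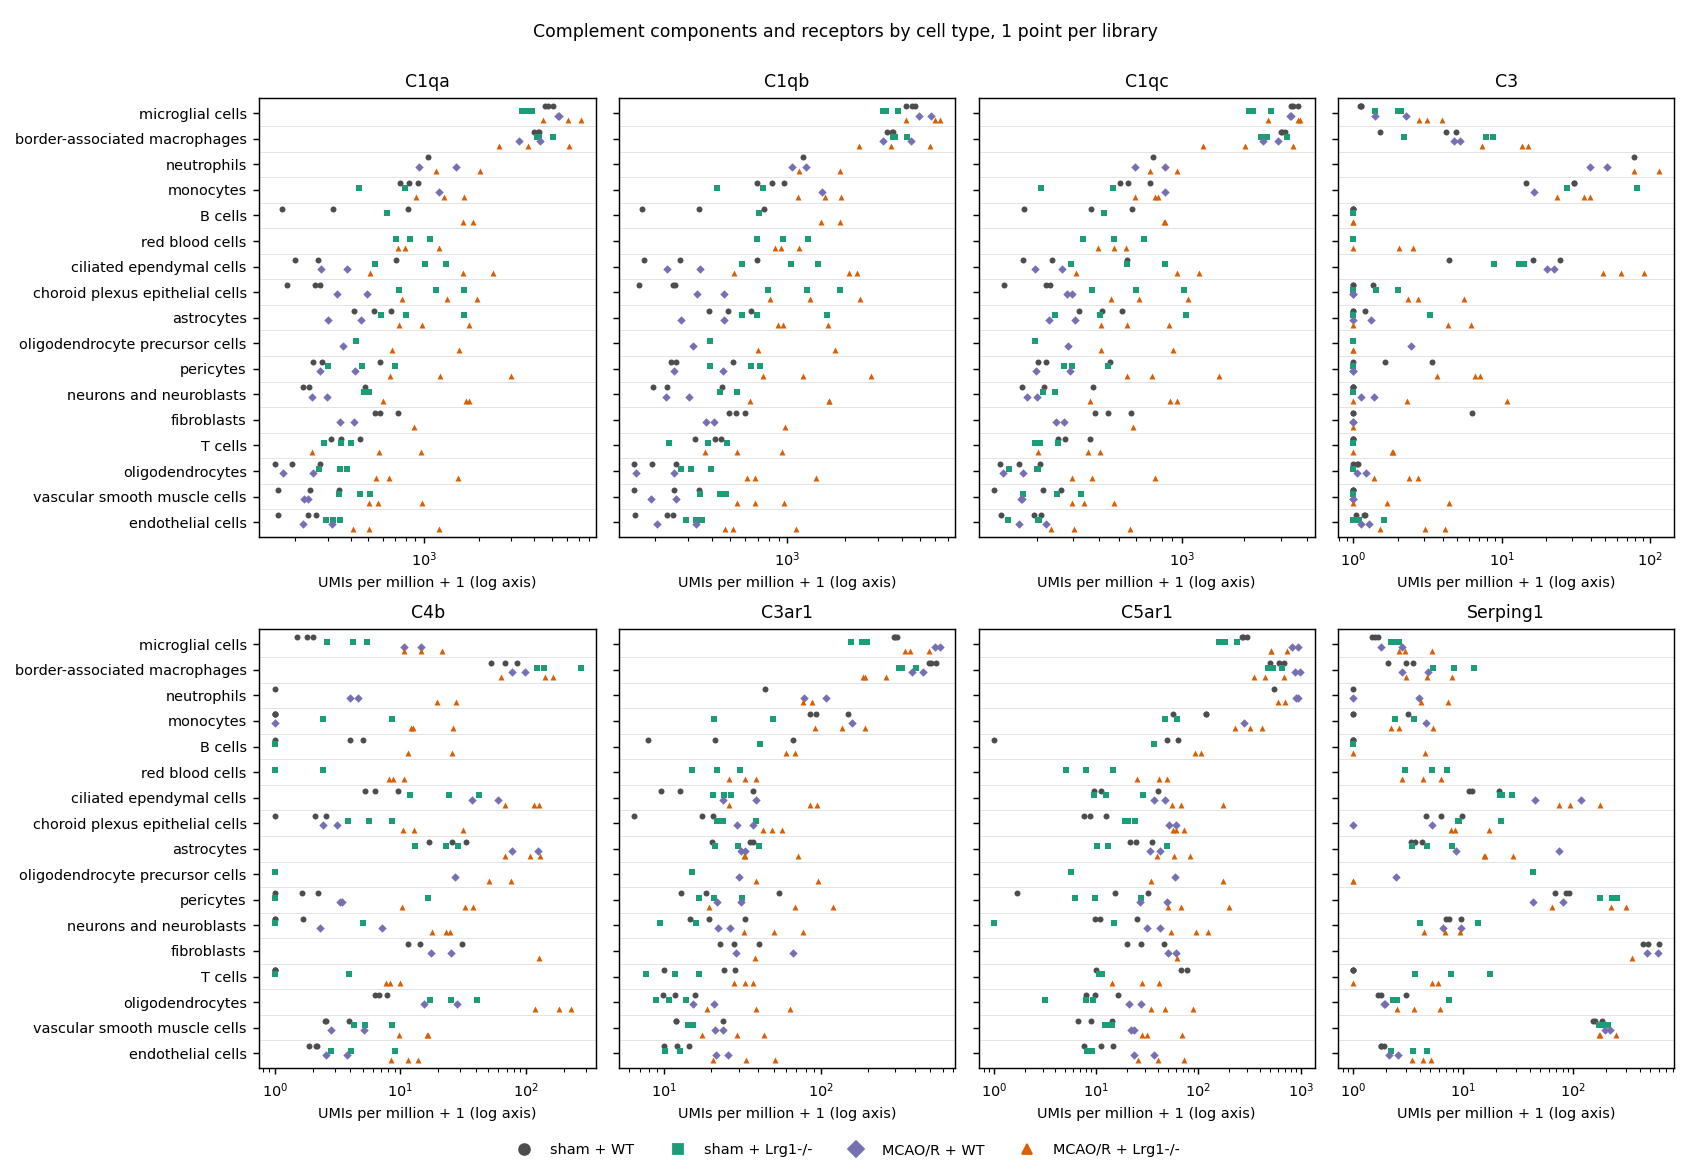
Levels of the 8 complement genes in 17 cell types, 1 panel per gene, with CPM + 1 on a log axis and 1 point per mouse, coloured by group. Points of C1q and *C3ar1* lie furthest right in microglial cells and border-associated macrophages, those of *C5ar1* in these cells and neutrophils, and the MCAO/R + Lrg1-/- points of *C4b* lie furthest right in oligodendrocytes.

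The order of mean levels was not the same in all groups. *C3ar1* was higher in microglial cells than in border-associated macrophages after MCAO/R, at 534 and 578 CPM against 383 and 449 in WT mice and 346 to 492 against 186 to 260.2 in Lrg1-/- mice, the reverse of the order in sham + WT. *C1qa* in sham + Lrg1-/- mice was higher in border-associated macrophages (4152 to 5070 CPM) than in microglial cells (3411 to 3900), also the reverse of sham + WT and without overlap. *C3* in sham + Lrg1-/- mice was higher in monocytes (26.7 and 81.2 CPM) than in ciliated ependymal cells (7.85 to 13.2). In MCAO/R + Lrg1-/- mice it was lower in monocytes (22.7 to 38.2) than in ciliated ependymal cells (47.1 to 90.5), and the ranges did not meet in either group. In MCAO/R + WT mice *C4b* was at 100 ± 33.4 CPM in astrocytes (n = 2) and 86.4 ± 14.1 in border-associated macrophages, with overlapping ranges. In MCAO/R + Lrg1-/- mice oligodendrocytes led at 175 ± 55.2 (n = 3), ahead of border-associated macrophages (121 ± 52.6), ciliated ependymal cells (103 ± 31.7) and astrocytes (100 ± 30.2), each of whose range met that of the next. *C5ar1* in MCAO/R + WT mice was at 925 ± 70.3 in border-associated macrophages, 914 ± 23.2 in neutrophils and 888 ± 89.1 in microglial cells, and these ranges overlapped. Microglial cells held 86.0% to 86.8% of the C1q UMIs of sham + WT cells and 86.1% to 87.4% in MCAO/R + WT, but 26.0% to 30.8% in sham + Lrg1-/- and 44.8% to 48.8% in MCAO/R + Lrg1-/-. Their mean share of the cells of a library was 39.2% in sham + WT and 39.8% in MCAO/R + WT. It was 11.35% in sham + Lrg1-/- and 12.2% in MCAO/R + Lrg1-/-, and the part of this in the C1q shares was not tested.

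Counted over all cell types, most called pairs were higher in Lrg1-/- mice after MCAO/R. Among called pairs nearer the level of the gene's highest tested cell type, as defined below, 4 of 6 were lower. A gene was called at an adjusted p under 0.05 and an absolute natural-log fold change over 0.25 in edgeR's quasi-likelihood test over all genes of a cell type. In MCAO/R + Lrg1-/- minus MCAO/R + WT, 36 of 82 tested pairs of gene and cell type were called (88 were possible in the 11 cell types tested), 32 of them higher and 4 lower, and the median log2 fold change of the 82 was 1.30. Over all genes of the same cell types, 16.7% of pairs were called (8.94% higher, 7.72% lower) and the median was 0.03. In sham + Lrg1-/- minus sham + WT, 15 of 88 pairs were called, 11 higher and 4 lower, with a median of 0.36; the background was 9.27% (4.71% higher, 4.56% lower). In MCAO/R + WT minus sham + WT, 13 of 83 pairs were called, all higher, with a median of 0.33, against a background of 9.06% (4.7% higher, 4.37% lower). In MCAO/R + Lrg1-/- minus sham + Lrg1-/-, 34 of 93 pairs were called, 33 higher and 1 lower, with a median of 1.18, against 11.1% (6% higher, 5.07% lower). These contrasts share groups, and pairs of 1 gene share mice, so the counts are not independent. Most pairs concern cell types where the gene is low. In the comparison of genotypes after MCAO/R, 18 of the 32 higher calls were C1q outside microglial cells and border-associated macrophages. A limit chosen after seeing the data kept pairs at 25% or more of the level of the gene's highest tested cell type. This level was the mean over the compared groups, so a pair could pass through the group where it was high. Of 20 such pairs in the comparison of genotypes after MCAO/R, 6 were called. Of these, 4 were lower (*C3ar1* and *C5ar1* in microglial cells and border-associated macrophages) and 2 higher (*C4b* in oligodendrocytes and *Serping1* in pericytes). In MCAO/R + WT mice alone, *C4b* in oligodendrocytes was at 20.9% of its highest cell type. There *Serping1* in pericytes was at 11.5% of its level in fibroblasts, which were not tested between genotypes. With the same limit, 3 of 15 pairs were called in sham + Lrg1-/- minus sham + WT, none of them higher, 4 of 16 in MCAO/R + WT minus sham + WT, all higher, and 13 of 25 in MCAO/R + Lrg1-/- minus sham + Lrg1-/-, 12 of them higher.

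A test of whether the effect of MCAO/R differed between genotypes called 0 of 76 pairs in edgeR, against 1.86% of all pairs, and the smallest adjusted p was 0.0533. An unadjusted p under 0.05 was found for 20 of the 76, against 13.8% of all pairs. DESeq2 called 4 of the 76, against 3.65% of all pairs: *C4b* in microglial cells (interaction −1.76, standard error (SE) 0.54, DESeq2 adjusted p = 0.0121) and *C1qc*, *C5ar1* and *C1qb* in oligodendrocytes (1.51, 2.04 and 1.46). The count of 0 depended on the processing: edgeR called 19 of 80 pairs with no filter on low counts, 0 to 7 with 1 library left out (7 without MCAO/R + Lrg1-/- replicate 1) and 14 of 77 without both *Xist*-expressing libraries.

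**Figure D2:**
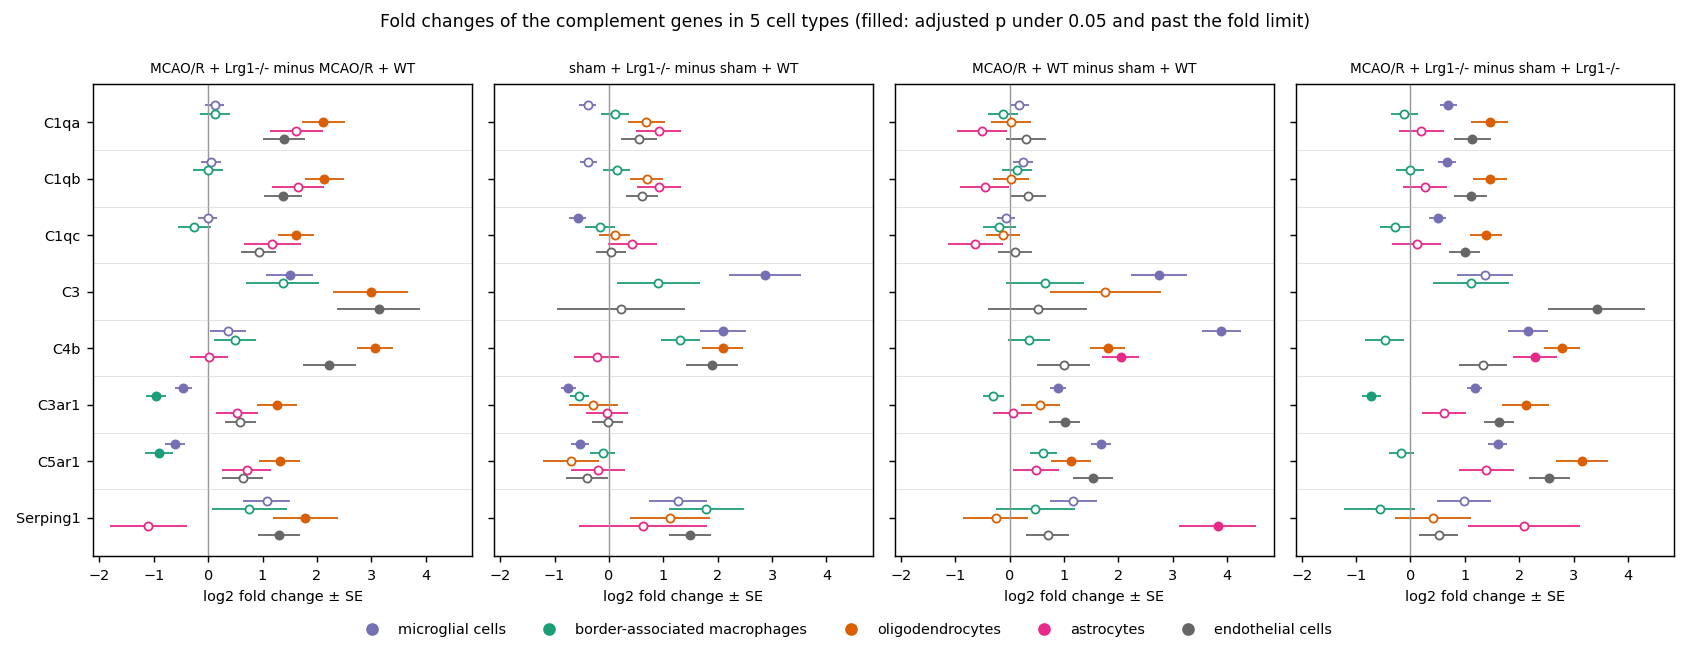
Log2 fold changes with standard errors (horizontal axis) of the 8 genes in 5 cell types, in 4 comparisons of groups, from the edgeR fits, with filled points for called pairs and pairs left out where a group had no UMI. In the first panel the oligodendrocyte points all lie right of 0 and are filled, while *C3ar1* and *C5ar1* in microglial cells and border-associated macrophages lie left of 0.

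C1q in microglial cells and border-associated macrophages, its main cells, did not pass the test between genotypes after MCAO/R. *C1qa* in microglial cells was at 5069, 4758 and 4570 CPM in sham + WT replicates 1 to 3 and 3644, 3411 and 3900 in sham + Lrg1-/-. It was at 5446 and 5394 in MCAO/R + WT, and 4451, 6102 and 7148 in MCAO/R + Lrg1-/-. The MCAO/R + Lrg1-/- mice were on both sides of the WT mice, and the sham + Lrg1-/- mice were all below the sham + WT mice. In MCAO/R + Lrg1-/- minus MCAO/R + WT the log2 difference was 0.12 (SE 0.18, edgeR adjusted p = 0.657) for *C1qa*, 0.05 for *C1qb* and −0.01 for *C1qc*, and none was called in any alternative run. In MCAO/R + WT minus sham + WT they were 0.18, 0.24 and −0.07, and none was called. In Lrg1-/- mice MCAO/R raised all 3 genes, by 0.69 (SE 0.16, edgeR adjusted p = 0.00396) for *C1qa*, 0.67 for *C1qb* and 0.50 for *C1qc*. The last of these calls was lost in 5 of 21 alternatives. The interactions of genotype and surgery, 0.52, 0.43 and 0.57, did not pass the test (edgeR adjusted p = 0.186, 0.273 and 0.132). In sham mice *C1qc* fell by 0.58 in the absence of *Lrg1* (SE 0.15, edgeR adjusted p = 0.0157), whereas *C1qa* (−0.39) and *C1qb* (−0.38) did not pass the test, although both passed in DESeq2. The 7 microglial markers summed to 9471 to 10274 CPM in microglial cells of sham + WT mice, 6831 to 8275 in sham + Lrg1-/-, 3538 to 4199 in MCAO/R + WT and 5484 to 6230 in MCAO/R + Lrg1-/-, and their part in these values was not tested.

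In border-associated macrophages *C1qa* ranged from 2581 to 6167 CPM over the MCAO/R + Lrg1-/- mice and from 3313 to 4324 over the MCAO/R + WT mice, and no C1q gene was called there in any of the 4 comparisons. *C1qb* differed by 0.003 on the log2 scale between these groups, with an edgeR adjusted p of 0.996. These values depended on the MCAO/R + Lrg1-/- libraries kept. Without the 2 *Xist*-expressing libraries, which leaves replicate 5 alone in its group, the *C1qb* difference was −0.69 (edgeR adjusted p = 0.0416). In monocytes, of which MCAO/R + Lrg1-/- replicates 2 and 5 held 873 and 687 and replicate 1 held 44, *C1qa* was at 908 to 1660 CPM against 445 and 792 in sham + Lrg1-/- mice, a log2 rise of 1.07 (edgeR adjusted p = 0.0411, lost in 8 of 20 alternatives). The 6 border-associated macrophage markers summed to 249 to 2339 CPM in these monocytes after MCAO/R and 185 and 207 after sham operation, and the 6 dendritic cell markers to 27.1 to 92.1 and 168 and 649. Their part in the monocyte values was not tested. In MCAO/R + Lrg1-/- mice the monocyte mean of *C1qa* (1287 CPM) was below that of B cells (1756), pericytes (1626) and neutrophils (1589). It was above that of astrocytes (1160) and endothelial cells (707). In sham + Lrg1-/- mice it (618) was below that of choroid plexus epithelial cells (1191) and astrocytes (1012) and above that of endothelial cells (321). Which cells made the C1q transcripts counted in monocytes was not tested.

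C1q transcripts were also counted in cell types other than microglial cells, border-associated macrophages and monocytes, and after MCAO/R many were higher in Lrg1-/- mice. Neutrophils were among these types, and were tested only in the comparison of genotypes after MCAO/R. In that comparison 18 of 27 such pairs were called, all higher, with a median log2 difference of 1.69. Over all genes and cell types 16.7% of pairs were called in this comparison. Of the microglial markers, which these cells should lack, 37 of 62 pairs were called in the same cells, all higher, with a median of 1.72. In sham mice 3 of 27 C1q pairs and 7 of 62 marker pairs were called, near the 9.27% over all genes. In MCAO/R minus sham in WT mice, where 9.06% of all pairs were called, 0 of 27 C1q pairs (median −0.15) and 25 of 63 marker pairs were called in edgeR, the latter all lower (median −1.90). In Lrg1-/- mice, where 11.1% of all pairs were called, 6 of 30 C1q pairs were called, all higher (median 0.73), and 14 of 68 marker pairs, all lower (median −0.67). In microglial cells, border-associated macrophages and, where tested, monocytes 12 of 14 and 11 of 21 marker pairs were called in these comparisons, all lower. For *C1qa* in oligodendrocytes the values were 273, 192 and 154 CPM in sham + WT and 270, 381 and 352 in sham + Lrg1-/-. It was at 250 and 171 in MCAO/R + WT, and 547, 648 and 1529 in MCAO/R + Lrg1-/-. The last group lay above all others, and its highest mouse, replicate 5, stood apart.

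To set C1q against the microglial markers, levels were divided by the microglial level of the same library. This was done in each cell type other than microglial cells, border-associated macrophages and monocytes. Per library, the median share over the other cell types was 4.80% to 9.69% for C1q in sham + WT mice, 12.6% to 17.1% in sham + Lrg1-/-, 5.28% and 6.77% in MCAO/R + WT and 12.1% to 24.7% in MCAO/R + Lrg1-/-. Divided by the share of the 7 summed microglial markers, this gave median ratios of 0.991 to 1.01 in sham + WT and 1.13 to 1.20 in sham + Lrg1-/-. The median ratios were 0.760 and 0.838 in MCAO/R + WT, and 1.10 to 1.46 in MCAO/R + Lrg1-/-. Single cell types ranged from 0.624 to 1.95. Which cells made the C1q transcripts counted in these types was not tested. All 7 markers had UMIs in oligodendrocytes, where they summed to 158 and 216 CPM in MCAO/R + WT and 499 to 1233 CPM in MCAO/R + Lrg1-/-.

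**Figure D3:**
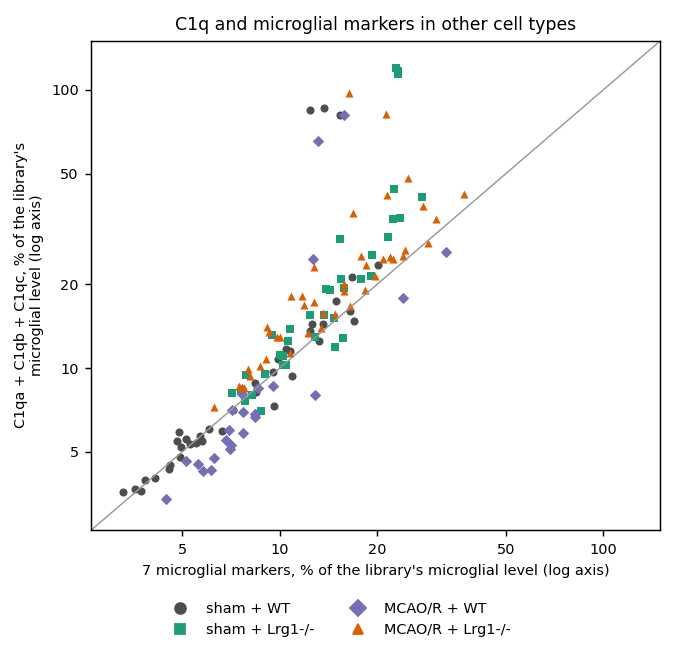
Summed C1q (vertical axis) and the 7 summed microglial markers (horizontal axis) in every cell type other than microglial cells, each as a percent of the microglial level of the same library, on log axes, with 1 point per mouse and cell type and the line of equal shares. Most points lie near the line, Lrg1-/- points lie further right and higher than WT points, and the border-associated macrophages, at 36.2% to 120% of the microglial C1q level, lie above the line.

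*C4b* in oligodendrocytes, the myelin-forming glia, differed in all 4 comparisons. It was at 5.74, 5.25 and 6.81 CPM in sham + WT and 24.2, 16.1 and 39.4 in sham + Lrg1-/-. It was at 27.3 and 14.4 in MCAO/R + WT, and 227, 180 and 117 in MCAO/R + Lrg1-/-. The lowest MCAO/R + Lrg1-/- mouse was above the highest mouse of every other group, and the lowest mice of the sham + Lrg1-/- and MCAO/R + WT groups were above all sham + WT mice. MCAO/R + Lrg1-/- exceeded MCAO/R + WT by 3.07 on the log2 scale (SE 0.33, edgeR adjusted p = 7.49e-05), with 8.40-fold as the fitted fold. Sham + Lrg1-/- exceeded sham + WT by 2.09 (SE 0.37, edgeR adjusted p = 0.00625), MCAO/R + WT exceeded sham + WT by 1.80 (SE 0.32, edgeR adjusted p = 0.00119), and MCAO/R + Lrg1-/- exceeded sham + Lrg1-/- by 2.78 (SE 0.33, edgeR adjusted p = 0.000195). Each of these 4 calls was kept in every alternative run. The interaction was 0.98 with an edgeR adjusted p of 0.277.

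**Figure D4:**
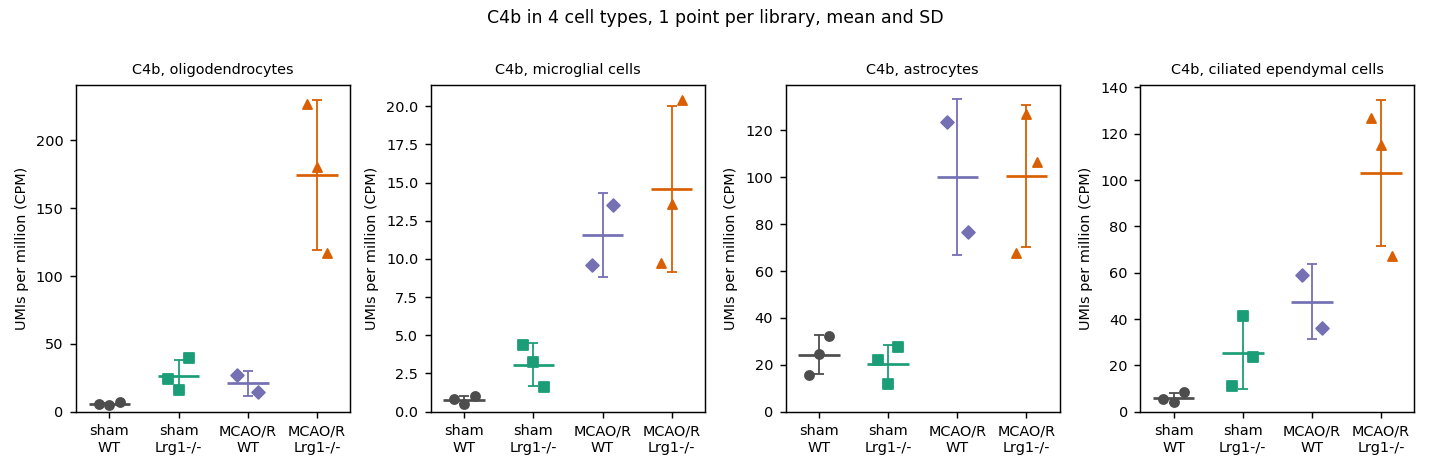
*C4b* in CPM (vertical axis, from 0) in oligodendrocytes, microglial cells, astrocytes and ciliated ependymal cells, with 1 point per mouse, the group mean as a line and the SD as a bar. In oligodendrocytes the 3 MCAO/R + Lrg1-/- mice sit between 117 and 227 CPM, and every other mouse sits at 39.4 or lower.

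The oligodendrocyte clusters were divided unevenly among the groups. One cluster led by *Ugt8a* and *Ano4* held 70.5% of the oligodendrocytes of sham + WT and 59.4% of sham + Lrg1-/-, another led by *Pcdh11x* and *Phactr3* held 77.8% of MCAO/R + WT, and one led by *Il33* and *Klk6* held 70.8% of MCAO/R + Lrg1-/- and 20.7% of MCAO/R + WT. Clusters were made without the complement genes. Within the *Pcdh11x* cluster *C4b* was at 32.1 and 15.4 unscaled CPM in MCAO/R + WT and 269, 175 and 116 in MCAO/R + Lrg1-/-. Within the *Il33* cluster it was at 21.8 and 16.7 against 158, 184 and 121. The genotypes did not overlap within either cluster. Outside oligodendrocytes, their precursors, astrocytes, border-associated macrophages, ciliated ependymal cells and fibroblasts, the 9 to 11 other cell types of an MCAO/R + Lrg1-/- library had a median of 9.48 to 15.6 CPM and at most 36.7. Summed choroid plexus markers, which oligodendrocytes should lack, were at 2524 to 4136 CPM in oligodendrocytes of MCAO/R + Lrg1-/- and 86.1 and 180 in MCAO/R + WT, and astrocyte markers at 126 to 164 and 74.9 and 153. *C4a* had 1 to 7 UMIs in the oligodendrocytes of each MCAO/R library against 423 to 2170 for *C4b*.

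*C4b* was also higher after MCAO/R in microglial cells, astrocytes and ciliated ependymal cells of both genotypes, where the genotypes did not differ past the threshold after MCAO/R. In microglial cells it was at 0.812, 0.501 and 1.02 CPM in sham + WT and 4.40, 3.23 and 1.59 in sham + Lrg1-/-. It was at 9.62 and 13.5 in MCAO/R + WT, and 9.71, 13.6 and 20.4 in MCAO/R + Lrg1-/-. The groups after MCAO/R overlapped, and those after sham operation did not. In MCAO/R + Lrg1-/- mice the microglial mean (14.6 CPM) was below that of pericytes (26.0), neutrophils (22.6) and choroid plexus epithelial cells (17.2). It was above that of endothelial cells (10.2) and T cells (7.66). Which cells made the *C4b* transcripts counted in microglial cells was not tested. MCAO/R + WT exceeded sham + WT by 3.89 (SE 0.36, edgeR adjusted p = 1.11e-05) and MCAO/R + Lrg1-/- exceeded sham + Lrg1-/- by 2.16 (SE 0.37, edgeR adjusted p = 0.000525), both in every alternative run, whereas the genotypes differed by 0.37 after MCAO/R (edgeR adjusted p = 0.450). In sham mice the Lrg1-/- group was higher by 2.10 (edgeR adjusted p = 0.00341), on 48 UMIs in all, a call lost in 1 of 21 alternatives. In astrocytes *C4b* was at 15.8 to 32.5 CPM in sham + WT and at most 27.6 in sham + Lrg1-/-. It was at 124 and 76.5 in MCAO/R + WT and 67.6, 127 and 107 in MCAO/R + Lrg1-/-. The rise after MCAO/R was 2.04 in WT (SE 0.34, edgeR adjusted p = 0.0120) and 2.29 in Lrg1-/- (edgeR adjusted p = 0.0419, lost in 11 of 21 alternatives), and the genotypes differed by 0.02 after MCAO/R. The astrocytes of the genotypes fell into different clusters: those led by *Gpc5* and by *Slc1a2* and *Gpc5* held 193 and 273 cells of MCAO/R + WT but 24 and 3 of MCAO/R + Lrg1-/-, and one led by *Sgcz* and *Ptx3* held 89 and 224. In ciliated ependymal cells it was at 4.25 to 8.51 CPM in sham + WT and 10.9 to 41.4 in sham + Lrg1-/-. It was at 59.1 and 36.0 in MCAO/R + WT, and 127, 115 and 67.1 in MCAO/R + Lrg1-/-, with called rises after MCAO/R of 2.98 and 2.06. These ependymal calls were lost in 6 and 7 of 21 alternatives. In border-associated macrophages *C4b* was at 51.4, 66.6 and 83.7 CPM in sham + WT and 138, 121 and 270 in sham + Lrg1-/-. These groups did not overlap, but the difference of 1.32 did not pass the test (edgeR adjusted p = 0.0981). Astrocytes of Lrg1-/- mice held more choroid plexus markers than those of WT mice (4145 to 34013 CPM against at most 549), and the part of this in the astrocyte values was not tested.

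*C3*, the component on which all complement pathways meet, had few UMIs, 3501 in all cells of MCAO/R + Lrg1-/-, 257 in MCAO/R + WT, 180 in sham + Lrg1-/- and 179 in sham + WT. In neutrophils it was at 38.8 and 50.3 CPM in MCAO/R + WT and 76.9 and 115 in MCAO/R + Lrg1-/- replicates 2 and 5, on 13 to 690 UMIs, a log2 difference of 1.12 that did not pass the test (edgeR adjusted p = 0.306). Neutrophils numbered 53 and 50 cells in the MCAO/R + WT libraries and 304 and 1296 in these MCAO/R + Lrg1-/- libraries. In ciliated ependymal cells *C3* was at 3.42, 23.7 and 15.4 CPM in sham + WT and 12.1, 13.2 and 7.85 in sham + Lrg1-/-. It was at 19.2 and 21.6 in MCAO/R + WT and 63.4, 90.5 and 47.1 in MCAO/R + Lrg1-/-. The last group was above all other mice, and it exceeded sham + Lrg1-/- by 2.62 (SE 0.55, edgeR adjusted p = 0.0333, lost in 8 of 20 alternatives), while the difference from MCAO/R + WT of 1.72 did not pass (edgeR adjusted p = 0.0612). The 6 neutrophil markers summed to 194 to 3324 CPM in ciliated ependymal cells of MCAO/R + Lrg1-/-, 16.6 and 16.8 in MCAO/R + WT, 82.7 to 580 in sham + Lrg1-/- and 9.12 to 152 in sham + WT, and their part in the *C3* values was not tested. In microglial cells *C3* rested on 1 to 106 UMIs a library. There it was at 0.105 to 0.134 CPM in sham + WT and 0.397 to 1.10 in sham + Lrg1-/-. It was at 0.395 and 1.26 in MCAO/R + WT and 1.78 to 2.94 in MCAO/R + Lrg1-/-, and 3 of the 4 comparisons were called. In MCAO/R + Lrg1-/- mice the microglial mean (2.29 CPM) was below that of pericytes (4.80), neurons and neuroblasts (3.70) and astrocytes (2.86). It was above that of endothelial cells (1.90) and T cells (0.552). Which cells made the *C3* transcripts counted in microglial cells was not tested. In oligodendrocytes sham + Lrg1-/- libraries had 0 UMIs of *C3*, which allows up to 0.499 CPM (3 counts over the group, without the spread between mice). The MCAO/R + Lrg1-/- mice were at 0.376 to 1.72 CPM (mean 1.15), so the lowest of them lay below that limit.

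The receptor genes rose in microglial cells after MCAO/R in both genotypes, and stood lower in Lrg1-/- mice. *C3ar1* in microglial cells was at 299, 292 and 308 CPM in sham + WT and 198, 155 and 181 in sham + Lrg1-/-. It was at 578 and 534 in MCAO/R + WT and 346, 492 and 373 in MCAO/R + Lrg1-/-. *C5ar1* was at 267, 296 and 270 in sham + WT and 235, 159 and 182 in sham + Lrg1-/-. It was at 951 and 825 in MCAO/R + WT and 508, 730 and 513 in MCAO/R + Lrg1-/-. For both genes no Lrg1-/- mouse reached a WT mouse of the same operation. MCAO/R raised *C3ar1* by 0.89 in WT (SE 0.15, edgeR adjusted p = 0.00109) and by 1.18 in Lrg1-/- mice (SE 0.14, edgeR adjusted p = 7.65e-05), and *C5ar1* by 1.68 (SE 0.18, edgeR adjusted p = 4.09e-05) and 1.60 (SE 0.17, edgeR adjusted p = 4.28e-05). These 4 calls were kept in every alternative run.

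Between genotypes, *C3ar1* in microglial cells fell by 0.75 in sham mice (SE 0.14, edgeR adjusted p = 0.00246, kept in every alternative) and by 0.46 after MCAO/R (SE 0.15, edgeR adjusted p = 0.0483, lost in 12 of 21 alternatives). *C5ar1* fell by 0.53 in sham mice (edgeR adjusted p = 0.0380, lost in 5 of 21) and by 0.61 after MCAO/R (SE 0.18, edgeR adjusted p = 0.0328, lost in 7 of 21). Of the 8 complement genes, all tested in microglial cells, 3 were called in MCAO/R + Lrg1-/- minus MCAO/R + WT, against 21.3% of all microglial genes, 5 in sham + Lrg1-/- minus sham + WT (22.2%), 4 in MCAO/R + WT minus sham + WT (22.2%) and 6 in MCAO/R + Lrg1-/- minus sham + Lrg1-/- (36.4%).

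**Figure D5:**
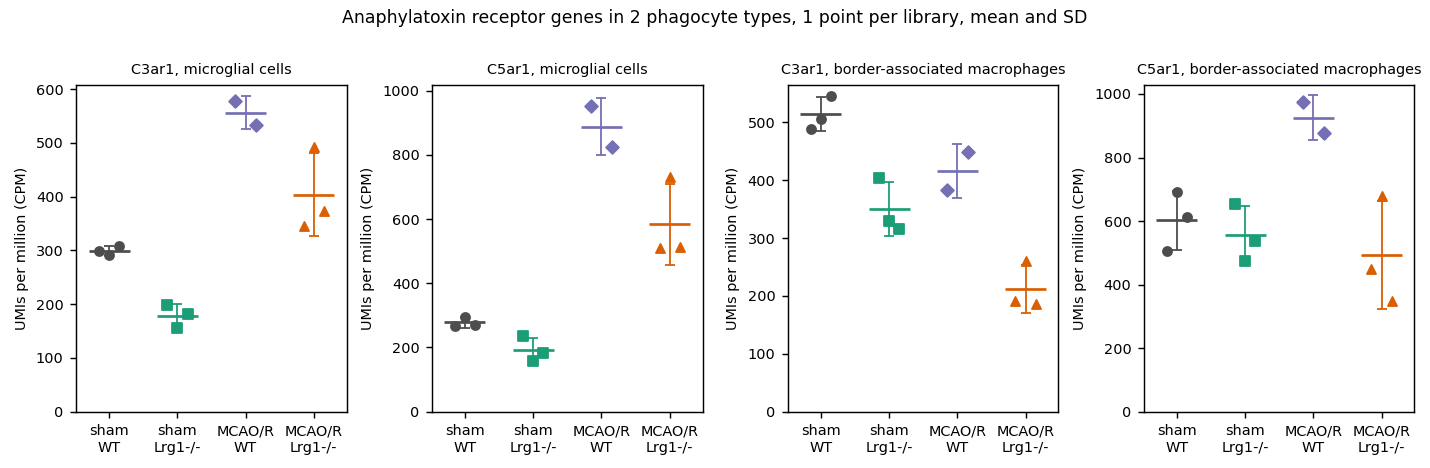
*C3ar1* and *C5ar1* in CPM (vertical axis, from 0) in microglial cells and border-associated macrophages, with 1 point per mouse, the group mean as a line and the SD as a bar. In microglial cells both genes are higher after MCAO/R than after sham operation in each genotype, and in border-associated macrophages *C3ar1* sits between 186 and 260 CPM in MCAO/R + Lrg1-/- against 383 or higher in WT mice.

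Different clusters held most of the microglial cells of each group, and the receptor genes were compared within them as a description. A cluster led by the interferon-related genes *Ifih1* and *Ifnb1* held 42.9% of the microglial cells of sham + WT and 2.42% of sham + Lrg1-/-. A cluster led by *P2ry12* and *Gpr34* held 71.7% of the microglial cells of sham + Lrg1-/- and 46.7% of sham + WT, one led by *Tmem154* and *Cep152* held 47.0% of MCAO/R + WT, and one led by *Hao1* and *Gm17749* held 58.8% of MCAO/R + Lrg1-/- and 26.0% of MCAO/R + WT. In the *Hao1* cluster *C3ar1* was at 515 and 522 unscaled CPM in MCAO/R + WT and 247, 304 and 306 in MCAO/R + Lrg1-/-, and *C5ar1* at 913 and 812 against 429, 505 and 449. In the *Tmem154* cluster *C3ar1* was at 525 and 505 against 224, 279 and 305, and *C5ar1* at 829 and 785 against 445, 385 and 407. In a cluster led by *Spp1* and *Lpl*, genes known from microglial cells near lesions, *C3ar1* was at 633 in the 1 MCAO/R + WT library with 20 cells or more and 659, 641 and 594 in MCAO/R + Lrg1-/-. This cluster held 17.7% of the microglial cells of MCAO/R + Lrg1-/- and 6.97% of MCAO/R + WT. *C5ar1* in it was at 813 against 717, 794 and 645. A cluster led by *AI504432* and *Ifi207* held 15.7% of the microglial cells of MCAO/R + WT and 4.28% of MCAO/R + Lrg1-/-, with *C3ar1* at 502 and 547 against 374, 425 and 399 and *C5ar1* at 988 and 877 against 600.2, 678 and 544. A cluster led by *Gpr84* and *Xist* held 1.97% and 16.1%, with *C3ar1* at 483 and 543 against 518, 377 and 416 and *C5ar1* at 780 and 716 against 727, 750 and 607. After MCAO/R the genotypes did not overlap for either gene in the *Hao1*, *Tmem154* and *AI504432* clusters and overlapped for both in the *Gpr84* cluster. In the *Spp1* cluster the WT value lay within the Lrg1-/- range for *C3ar1* and above it for *C5ar1*. In sham mice *C5ar1* in the *P2ry12* cluster was at 228, 239 and 209 in WT and 221.5, 144 and 155 in Lrg1-/-. The sham genotypes also overlapped for *C5ar1* in the *Tmem154* and *Hao1* clusters, but for *C3ar1* in none of these clusters. In the *Ifih1* cluster *C5ar1* was at 281 to 302 in sham + WT and 174 in the 1 sham + Lrg1-/- library with 20 cells or more.

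In border-associated macrophages *C3ar1* was at 489, 506 and 546 CPM in sham + WT and 403, 330 and 316 in sham + Lrg1-/-. It was at 383 and 449 in MCAO/R + WT and 191, 260 and 186 in MCAO/R + Lrg1-/-. The MCAO/R + Lrg1-/- mice were below all others. *C3ar1* fell by 0.96 against MCAO/R + WT (SE 0.19, edgeR adjusted p = 0.00448) and by 0.72 against sham + Lrg1-/- (SE 0.18, edgeR adjusted p = 0.0182), calls lost in 2 and 3 of 21 alternatives, whereas the difference of −0.30 between MCAO/R + WT and sham + WT did not pass. *C5ar1* was at 505, 690 and 612 in sham + WT and 654, 474 and 536 in sham + Lrg1-/-. It was at 975 and 876 in MCAO/R + WT and 449, 680 and 348 in MCAO/R + Lrg1-/-, and it fell by 0.90 between the genotypes after MCAO/R (SE 0.25, edgeR adjusted p = 0.0225, lost in 5 of 21 alternatives). The 5 monocyte markers summed to 118 to 1388 CPM in border-associated macrophages of MCAO/R + Lrg1-/- and 6.26 and 29.2 in MCAO/R + WT, and their part in these values was not tested. These cells numbered 36 to 208 a library in MCAO/R + Lrg1-/- and 220 and 155 in MCAO/R + WT. They fell into 3 clusters, of which one with *P2rx7* among its 10 leading genes held 61 cells of MCAO/R + Lrg1-/- and 168 of MCAO/R + WT, one led by *Cbr2* and *Pf4* held 83 and 25, and one led by *Mrc1*, *Cd36*, *F13a1* and *Lyve1* held 226 and 182. In the *P2rx7* cluster *C3ar1* was at 401 and 421 unscaled CPM in MCAO/R + WT and 267 and 470 in MCAO/R + Lrg1-/- replicates 2 and 5, the last on 20 cells, so the genotypes overlapped there. In the *Lyve1* cluster it was at 363 and 488 against 262 and 161, without overlap. *C5ar1* was lower in both Lrg1-/- libraries than in both WT libraries in each of these clusters.

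Among leukocytes, *C5ar1*, through which C5a draws neutrophils and monocytes, was at 898 and 931 CPM in neutrophils of MCAO/R + WT. It was at 700 and 602 in those of MCAO/R + Lrg1-/- replicates 2 and 5, a difference of −0.49 that did not pass the test (edgeR adjusted p = 0.473). In monocytes *C5ar1* was at 226, 414 and 318 CPM in MCAO/R + Lrg1-/- against 46.4 and 60.9 in sham + Lrg1-/- (log2 rise 2.61, SE 0.38, edgeR adjusted p = 0.00270), and *C3ar1* at 90.8, 136 and 192 against 19.7 and 48.2 (2.16, edgeR adjusted p = 0.0129). The macrophage and dendritic cell markers given above for these monocytes apply here too. Monocytes of MCAO/R + WT came from 1 library and were not tested. Outside leukocytes and macrophages both receptor genes were at lower levels, and a rise after MCAO/R was called in some of these cell types. In WT mice *C5ar1* was called in endothelial cells, choroid plexus epithelial cells and oligodendrocytes, and *C3ar1* in endothelial cells only. Over all genes and cell types 9.06% of pairs were called in that comparison. In endothelial cells *C5ar1* was at 6.59 to 13.7 CPM in sham + WT and 22.5 and 35.5 in MCAO/R + WT (1.52, edgeR adjusted p = 0.0130). *C5ar1* in oligodendrocytes was at 2.13 to 8.38 CPM in sham + Lrg1-/- and 33.5, 46.1 and 87.6 in MCAO/R + Lrg1-/- (3.15, SE 0.48, edgeR adjusted p = 0.000923), where 11.1% of all pairs were called. These levels were 2.56% of that of the highest tested cell type for endothelial cells and 5.87% for oligodendrocytes. In microglial cells *C5ar1* rose by 1.68 and 1.60 in the same comparisons. The summed microglial markers were at 357 to 544 CPM in endothelial cells of sham + WT and 218 and 293 in MCAO/R + WT. In oligodendrocytes they were at 549 to 702 in sham + Lrg1-/- and 499 to 1233 in MCAO/R + Lrg1-/-. Which cells made the receptor transcripts counted in these types was not tested.

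*Serping1* was highest in fibroblasts and mural cells, and in smooth muscle cells none of the 4 comparisons passed the test. In vascular smooth muscle cells it was at 151, 158 and 181 CPM in sham + WT and 169, 187 and 204 in sham + Lrg1-/-. It was at 215 and 195 in MCAO/R + WT and 175, 243 and 170 in MCAO/R + Lrg1-/-, with no call in any comparison and a log2 difference of −0.05 between the genotypes after MCAO/R. In fibroblasts, tested in this comparison only, it was at 602, 430 and 472 in sham + WT and 470 and 586 in MCAO/R + WT, a difference of 0.07 that did not pass (edgeR adjusted p = 0.962). In pericytes, the contractile cells of capillaries, it was at 66.6, 84.6 and 90.6 in sham + WT and 224, 173 and 250 in sham + Lrg1-/-. It was at 79.6 and 41.7 in MCAO/R + WT and 300, 219 and 63.7 in MCAO/R + Lrg1-/-. The MCAO/R groups overlapped, with MCAO/R + Lrg1-/- replicate 5 within the WT range. The rise in MCAO/R + Lrg1-/- over MCAO/R + WT was 1.62 (SE 0.42, edgeR adjusted p = 0.0173), but without the 2 *Xist*-expressing libraries it was 0.02 (edgeR adjusted p = 0.991), and the sham difference of 1.41 did not pass (edgeR adjusted p = 0.0524). Pericytes of sham + Lrg1-/- mice held summed smooth muscle markers at 2496 to 4027 CPM against 923 to 1336 in sham + WT. Those of MCAO/R + Lrg1-/- held them at 1080 to 1892 against 824 and 836. Summed pericyte markers were at 2587 to 3542 against 5745 to 6631 after sham operation, and 3117 to 3899 against 5269 and 7418 after MCAO/R. Summed fibroblast markers were at 368 to 417 against 254 to 396, and 164 to 551 against 364 and 373. The part of these in the *Serping1* values was not tested.

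*Serping1* rose after MCAO/R in ciliated ependymal cells, from 10.3, 10.9 and 20.2 CPM in sham + WT to 116 and 43.7 in MCAO/R + WT (2.56, SE 0.46, edgeR adjusted p = 0.0469), and from 20.6, 26.5 and 21.3 in sham + Lrg1-/- to 91.6, 175 and 73.6 in MCAO/R + Lrg1-/- (2.34, SE 0.45, edgeR adjusted p = 0.0286). These calls were lost in 9 and 7 of 21 alternatives, and the genotypes did not differ past the threshold. In astrocytes it was at 2.36 to 3.22 CPM in sham + WT and 73.9 and 7.57 in MCAO/R + WT. The fitted rise of 3.82 (edgeR adjusted p = 0.0207) rested on replicate 1 and was 1.44 without it.

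In oligodendrocytes all 8 complement genes were tested and 8 were called higher in MCAO/R + Lrg1-/- than in MCAO/R + WT, where 28.8% of all oligodendrocyte genes were called. In sham + Lrg1-/- minus sham + WT, *C4b* alone was called among the 8 (6.2% of all genes). In MCAO/R + WT minus sham + WT, *C4b* and *C5ar1* were called (22.1%), and in MCAO/R + Lrg1-/- minus sham + Lrg1-/- 7 were called (16.6%). Of the 8 in the first comparison, the calls of *C1qa*, *C1qb*, *C1qc* and *C4b* were kept in every alternative run, *C3* was lost in 2 of 17, *C3ar1* in 5 of 21, *C5ar1* in 5 of 21 and *Serping1* in 9 of 20. *C4b* was at 94.2% of the mean level of its highest tested cell type over these groups, whereas the other 7 were at 0.923% to 10.2% of theirs. The mean includes the group where *C4b* was high: in MCAO/R + WT alone it was at 20.9% of its highest cell type.

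Other genes of the complement system were read from a list of 47, of which 34 passed the filter on low counts in a cell type. In MCAO/R + Lrg1-/- minus MCAO/R + WT 68 of 241 pairs were called (16.7% over all genes), 54 higher and 14 lower, with a median of 0.51. The receptors other than *C3ar1* and *C5ar1* gave 33 of 84 called pairs, all higher, and the fluid-phase and surface regulators 23 of 91, of which 10 were lower. *Calr*, the chaperone calreticulin that also acts as a C1q receptor, was at 1080 to 1460 CPM in microglial cells of MCAO/R + Lrg1-/- and 223 and 430 in MCAO/R + WT (1.94, SE 0.23, edgeR adjusted p = 0.000157). *Cd59a*, which blocks the membrane attack complex, moved the other way in endothelial cells, at 134 to 163 CPM in MCAO/R + Lrg1-/- against 307 and 375 in MCAO/R + WT (−1.17, SE 0.12, edgeR adjusted p = 8.95e-05). In WT endothelial cells it rose after MCAO/R by 1.48 (119 to 126 CPM in sham + WT). The effect of MCAO/R on *Cd59a* in endothelial cells differed between genotypes by −1.64 (edgeR adjusted p = 0.000554). In sham mice 39 of 253 pairs were called (9.27% over all genes), 30 of them higher in Lrg1-/-, and *Clu*, which encodes clusterin, a fluid-phase regulator, was higher in endothelial cells by 2.02, in pericytes by 2.42 and in microglial cells by 1.36. The counts were 23 of 246 in MCAO/R + WT minus sham + WT (9.06% over all genes) and 33 of 263 in MCAO/R + Lrg1-/- minus sham + Lrg1-/- (11.1%). In the last of these the other receptors gave 23 of 93, 21 of them higher, and the regulators 3 of 102, all lower. *C1qbp*, named for its binding of C1q and known as a mitochondrial protein, rose by 2.17 in microglial cells in the same comparison.

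As a description, the genes whose mean level per cell type and group ran most alike were sought over 61 points in 17 cell types, which share libraries. For *C1qa* the closest were *Lgmn* (Pearson's r = 0.926), *Fcgr1* and *Cd68*, and for *C1qb* and *C1qc* they were *Fcgr1* (0.927) and *Lgmn* (0.934). *C3ar1* ran closest to *Ccl3* (0.952), *Cd68* and *Grn*, and *C5ar1* to *Ccl3* (0.941), *Fcgr3* and *Tnf*. *Serping1* ran closest to the collagen gene *Col1a2* (0.917), *Zic1* and *Nbl1*, and *C3* to *Hp* (0.915). *C4b* had no gene as close, with *Srxn1* (0.683), *Mt1* (0.660) and *Il33* (0.649) at the top.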

How the data were processed

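The authors deposited gene by cell matrices of UMI counts, 1 per library, made with Cell Ranger (7.0.1 in the file headers) on mm10; the counts were not normalized. Cells with more than 500 genes, more than 1000 UMIs and under 25% mitochondrial UMIs were kept. Predicted doublets (7324 of 132437) were removed by Scrublet's automatic threshold. Where it marked under 0.5% of a library, the 6% of cells with the highest Scrublet scores were removed instead. This held for sham + WT replicate 1, sham + Lrg1-/- replicates 2 and 5 and MCAO/R + Lrg1-/- replicates 1 and 5. Cells were clustered (scanpy 1.11.5, 15 principal components of 2000 variable genes without complement genes, 3 neighbours per library, Leiden resolution 0.3) and named by markers, so names may differ from the study's; 29782 cells in unnamed clusters were left out. Per mouse, the counts of each cell type with 20 cells or more were added up and tested over all genes with edgeR 4.0.16 (trimmed mean of M-values, quasi-likelihood, all groups in 1 fit, Benjamini-Hochberg), with 2 or more mice a group. DESeq2 1.42.0 was an alternative. With 1 library per mouse, p-values cover the spread between mice. Tested on simulated data for MCAO/R + Lrg1-/- minus MCAO/R + WT, the fit recovered 35% of 2-fold and 93% of 4-fold changes in microglial cells (18302 genes). Every simulated gene had the same dispersion, so these rates do not describe genes that vary more between mice. Named genes outside the 8 were the called genes of the wider list, at most 5 a comparison by adjusted p, and the 3 most alike per member; 1 gene of that list is not reported here. The members and lists were chosen with earlier results of these data known.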

Additional observations from a re-analysis of the deposited data

Results flagged for a closer look

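The effect of MCAO/R differed between genotypes, by the interaction test in edgeR, for 8 of 229 pairs in the wider complement list (1.86% of all pairs of gene and cell type were called), of which 4 are given. The interaction was −1.64 on the log2 scale for *Cd59a* in endothelial cells, 1.92 for *Calr* in microglial cells, 1.49 for *Calr* in oligodendrocytes and −1.57 for *Cd59a* in microglial cells. In microglial cells *Cd59a* was at 1.65 to 2.83 CPM in sham + WT and 6.65 to 8.32 in sham + Lrg1-/-. It was at 6.22 and 6.54 in MCAO/R + WT and 5.25 to 9.12 in MCAO/R + Lrg1-/-.

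Cells in unnamed clusters, which entered no comparison, also held complement transcripts. In each MCAO/R + Lrg1-/- library they held at least 14.9% of the UMIs of *C1qa*, 15.7% of *C1qb*, 14.65% of *C1qc*, 7.07% of *C3*, 6.50% of *C4b*, 10.3% of *C3ar1* and 8.91% of *C5ar1*. For *C1qa* they held 14.9% to 46.6% in MCAO/R + Lrg1-/-, 23.6% to 47.6% in sham + Lrg1-/-, 1.30% and 3.30% in MCAO/R + WT and 0.729% to 3.01% in sham + WT. The comparisons of genotypes left out a larger share of the cells and of the *C1qa* UMIs of each Lrg1-/- library than of any WT library, and the part of this in the results was not tested.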

How the results depend on the processing

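Of the called pairs of complement gene and cell type, 4 of 36 (MCAO/R + Lrg1-/- minus MCAO/R + WT), 4 of 15 (sham + Lrg1-/- minus sham + WT), 4 of 13 (MCAO/R + WT minus sham + WT) and 11 of 34 (MCAO/R + Lrg1-/- minus sham + Lrg1-/-) were called in every alternative run, and 0 called pairs changed direction. In that order, with the interaction last, the counts were 56, 30, 21, 63 and 19 with no filter on low counts. With the groups of the contrast only they were 21 and 23 for Lrg1-/- minus WT after MCAO/R and after sham. With cells thinned to 1000 UMIs they were 7 for MCAO/R minus sham in WT, 21 in Lrg1-/- and 2 for the interaction, and DESeq2 gave 4 for the interaction. The deviations of same-numbered libraries from their group means had correlations of −0.28 to 0.08 over 3 cell types, and those of other libraries −0.27 to 0.28. These ranges overlap, and with so few mice a group they cannot decide whether the numbers pair the mice. With a replicate block the counts were 25, 10, 10, 37 and 1. Leaving out 1 library at a time gave 9 to 38, 9 to 20, 5 to 15, 13 to 37 and 0 to 7. The count for Lrg1-/- minus WT after MCAO/R was 20 without MCAO/R + WT replicate 1 and 9 without replicate 2, that after sham was 9 without sham + Lrg1-/- replicate 5 or sham + WT replicate 2, that for MCAO/R minus sham in WT was 7 without sham + WT replicate 2 or 3 and 5 without MCAO/R + WT replicate 1, and that in Lrg1-/- was 13 and 21 without sham + Lrg1-/- replicate 1 and 2. The interaction count was 7, 1 and 2 without MCAO/R + Lrg1-/- replicate 1, 2 and 5, and 1 without sham + Lrg1-/- replicate 5 or MCAO/R + WT replicate 1. Chosen after seeing the data, leaving out both *Xist*-expressing libraries gave 42, 21, 16, 47 and 14, and keeping pairs at 25% or more of the highest cell type gave 6, 3, 4, 13 and 0. Without the *Xist*-expressing libraries *C1qb* in border-associated macrophages turned to −0.69. A group left with 1 library was assumed to vary like the others. The cause of these differences was not tested. *C3* had 179 to 257 UMIs in all cells of 3 of the 4 groups, which limits what its tests can show.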
